A study of Mus musculus with 12 samples.

Results

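The transcripts of 8 dual-specificity phosphatases that act on MAP kinases, Dusp1, Dusp2, Dusp3, Dusp4, Dusp5, Dusp6, Dusp10 and Dusp16, were followed in RNA-seq libraries of neutrophils. They were chosen by name out of the 55335 genes of the count tables, with their levels in these libraries already known, so that their differences between groups are given as a description, with no p-value. How many passed the thresholds of a fit over all genes is counted beside the share of all genes that did, and nothing is read from it. All 8 passed the filter on low counts in each of the 3 comparisons. PyMT TANs (tumor-associated neutrophils) came from mammary tumors of 4 FVB-PyMT mice, in which the polyoma middle T oncogene drives tumors of the mammary gland. PyMT-Cxcr2-/- TANs came from tumors of 4 FVB-PyMT-Cxcr2-/- mice, which carry the same oncogene and lack the chemokine receptor Cxcr2 in the whole animal. WT BM neutrophils came from the bone marrow of 4 FVB WT mice without the oncogene. All 12 mice were 10 weeks old and SOPF housed, and each gave 1 library. Neutrophils were enriched on CD11b and sorted as CD45+ CD11b+ Ly6G+ F4/80- cells. Tumors were digested with enzymes beforehand and bone marrow was not, so that tissue, oncogene and digestion cannot be told apart in a comparison with WT BM neutrophils. Where PyMT-Cxcr2-/- TANs are compared with WT BM neutrophils, the loss of Cxcr2 cannot be told apart from these either. A bone marrow group of PyMT-Cxcr2-/- mice was not analysed here.

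MAP kinases (ERK, JNK and p38) become active when a kinase above them phosphorylates a threonine and a tyrosine in their activation loop. Dual-specificity phosphatases remove both phosphates, and many of their genes are themselves switched on by the kinases they turn off, which closes a negative feedback loop. Dusp1, Dusp2, Dusp4 and Dusp5 are inducible nuclear enzymes, Dusp6 is a cytoplasmic enzyme that prefers ERK, Dusp10 and Dusp16 prefer JNK and p38, and Dusp3 is a small atypical member without the kinase-binding domain of the others. In neutrophils these kinases take part in the oxidative burst, degranulation and cytokine production.

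Sequence upstream of the start site was matched in RefSeq (build GRCm38.p6) for 7 of the 8 genes. The 250 bases before the start site are printed 5′ to 3′ for the 2 windows with the most matches (Dusp1 and Dusp5), for Dusp16, whose level differed strongly between TANs and BM, and for Dusp6, which was lower in TANs than in BM. Capitals mark the core of the cyclic AMP response element (CRE; TGACG or its reverse complement), the CArG box bound by serum response factor, the AP-1 site (TGACTCA or TGAGTCA) and the TATA box (TATAAA or TATATA).
Dusp1: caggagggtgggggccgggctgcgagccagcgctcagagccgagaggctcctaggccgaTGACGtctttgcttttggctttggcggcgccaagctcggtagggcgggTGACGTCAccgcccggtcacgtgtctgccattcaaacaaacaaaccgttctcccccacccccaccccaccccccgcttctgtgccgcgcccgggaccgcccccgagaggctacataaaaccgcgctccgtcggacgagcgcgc
Dusp5: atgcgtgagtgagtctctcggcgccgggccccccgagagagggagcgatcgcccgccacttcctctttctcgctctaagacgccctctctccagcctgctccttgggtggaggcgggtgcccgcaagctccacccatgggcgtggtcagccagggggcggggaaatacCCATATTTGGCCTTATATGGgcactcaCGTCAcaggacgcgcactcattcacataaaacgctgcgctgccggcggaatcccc
Dusp16: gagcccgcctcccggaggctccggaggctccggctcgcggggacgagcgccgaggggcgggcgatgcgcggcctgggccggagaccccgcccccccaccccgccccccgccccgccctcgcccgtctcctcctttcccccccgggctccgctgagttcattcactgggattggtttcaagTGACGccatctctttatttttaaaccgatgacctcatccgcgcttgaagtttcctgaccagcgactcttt
Dusp6: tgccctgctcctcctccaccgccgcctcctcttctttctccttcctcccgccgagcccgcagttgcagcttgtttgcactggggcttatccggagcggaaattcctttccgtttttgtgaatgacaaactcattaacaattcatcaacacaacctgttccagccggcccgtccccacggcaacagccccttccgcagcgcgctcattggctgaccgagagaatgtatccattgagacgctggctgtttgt
These windows lie at chr17:26508473-26508722 on the minus strand for Dusp1, at chr19:53528895-53529144 on the plus strand for Dusp5, at chr6:134792629-134792878 on the minus strand for Dusp16 and at chr10:99262981-99263230 on the plus strand for Dusp6.

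The Dusp1 window held 3 CRE cores, the first bases of which lie 191, 143 and 140 bases before the start site, and the cores at 143 and 140 overlap as the strands of 1 full palindrome (TGACGTCA). The Dusp5 window held 2 adjacent CArG boxes that begin 82 and 72 bases before the start site and 1 CRE core 55 bases before it. The Dusp16 window held 1 CRE core 70 bases before the start site, and a CRE core of Dusp2 lies just after its start site. None of these motifs was matched in the windows of Dusp3, Dusp6 and Dusp10. Searched on both strands in 32817 promoter windows that run from 250 bases before to 50 after a start site, the CRE core was held by 20.8%, the palindrome by 1.79%, the CArG box by 1.63%, the AP-1 site by 5.2%, the TATA box by 17.1% and the NF-kappaB site by 4.5%. A match is a run of letters only, and no measurement of binding was made here.

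The counts on genes were between 25032704 and 51351569 per library, and 3 counts, taken as the floor, corresponded to 0.0584 to 0.12 CPM (counts relative to the library's total on genes), a limit from counting error alone. Cxcr2 itself was at 2036 ± 195 CPM in BM, 1198 ± 224 CPM in TANs of PyMT mice and 9.39 ± 0.577 CPM where the gene was deleted (SD, n = 4). The 8 neutrophil markers, Cxcr2 among them, summed to 77860 to 103000 CPM in BM. They summed to 10460 to 16720 CPM in TANs of PyMT mice and 18110 to 29690 CPM in those without Cxcr2. In each TAN group 7 of the 8 were lower than in WT BM neutrophils, including Cxcr2, which was deleted in PyMT-Cxcr2-/- mice. The 11 macrophage and monocyte markers summed to 265 to 367 CPM in BM, against 2182 to 5258 in TANs of PyMT mice and 2376 to 4899 in those without Cxcr2, and all 11 were higher in each TAN group than in WT BM neutrophils. The 8 mammary epithelial markers summed to 47.02 to 439 CPM and 83.6 to 305 CPM in the TAN groups and to at most 0.516 CPM in WT BM neutrophils, where Krt8, Krt14, Krt5 and Csn3 were at 0. By the thresholds given below, 30.1% of all genes tested were higher and 23.2% lower in PyMT TANs than in WT BM neutrophils. In PyMT-Cxcr2-/- TANs these shares were 34.4% and 25.1%. The share of the markers above in the differences from WT BM neutrophils was not tested. In sorted cells measured in bulk, fewer cells of a type and less RNA per cell cannot be told apart.

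Both TAN groups carried more of 6 phosphatase transcripts than WT BM neutrophils, less Dusp6, and Dusp10 at a level that overlapped in PyMT TANs. In PyMT TANs, 6 of the 8 were past the thresholds as higher and 1 as lower (edgeR's quasi-likelihood fit, thresholds of 0.05 on the p adjusted by Benjamini-Hochberg and 1.5 on the fold), while 30.1% of the 17153 genes tested were called higher and 23.2% lower. In PyMT-Cxcr2-/- TANs, 7 were past them as higher and 1 as lower, while 34.4% and 25.1% of the 17732 genes tested were called in these directions. Between the TAN groups, 0 of the 8 were past the thresholds in either direction, while 1.38% of 18463 genes were called higher in PyMT-Cxcr2-/- TANs and 0.596% lower (255 and 110 genes, or 206 and 391 with library totals in place of TMM). These counts describe genes that were chosen on the same levels. Without overlap between the groups were 7 of the 8 in PyMT TANs and 8 in PyMT-Cxcr2-/- TANs against BM, beside 58.3% and 65.9% of all genes tested. The median log2 fold change of the 8 was 3.56 in PyMT TANs and 3.49 in PyMT-Cxcr2-/- TANs against WT BM neutrophils, where the median of all genes tested was 0.09 in each, and 0.10 between the TAN groups, where it was -0.07. The comparisons with WT BM neutrophils share the same 4 BM libraries.

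**Figure D1:**
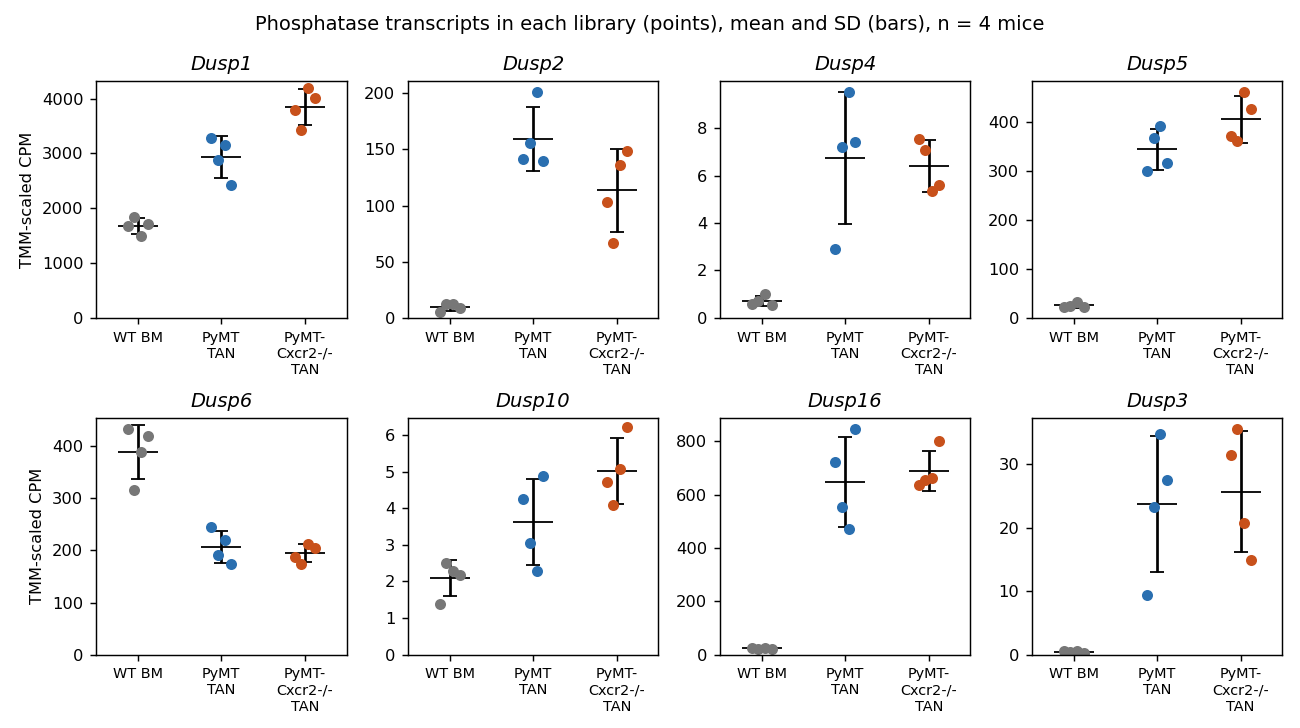
TMM-scaled CPM (vertical axes, linear, starting at 0) of the 8 phosphatase transcripts in WT BM neutrophils (grey), PyMT TANs (blue) and PyMT-Cxcr2-/- TANs (orange), with 1 point per mouse and bars for the mean and SD of 4 mice. TANs sit above BM in all 4 mice of each group for Dusp1, Dusp2, Dusp3, Dusp4, Dusp5 and Dusp16 and below it for Dusp6.

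Dusp1, the inducible nuclear phosphatase best known for restraining p38 and JNK during inflammation, was by far the most abundant of the 8. Its gene (ENSMUSG00000024190) lies at chr17:26505590-26562128 on the minus strand of mm10 and shares bases with Ergic1 on the opposite strand, so that its count is uncertain as far as the unstated strand setting of the counting lets reads of Ergic1 in. Dusp1 was at 1677, 1837, 1488 and 1717 CPM in the WT BM libraries, at 3278, 2881, 3150 and 2418 CPM in the PyMT TAN libraries, and reached 3801, 3426, 4187 and 4004 CPM in the PyMT-Cxcr2-/- TAN libraries (replicates 1 to 4 in each case). The 3 groups did not overlap, with PyMT-Cxcr2-/- TANs highest and BM lowest. The means were 1680 ± 145, 2932 ± 380.2 and 3854 ± 326.5 CPM in BM, PyMT TANs and PyMT-Cxcr2-/- TANs (SD, n = 4). On the log2 scale the change was 0.87 (SE 0.13) in PyMT TANs and 1.33 (SE 0.13) in PyMT-Cxcr2-/- TANs against BM. Between the TAN groups it was 0.39 (SE 0.15), a fold of 1.31 that did not reach the fold threshold, and 12% of all genes tested did not overlap between these groups. With library totals in place of TMM this difference was 0.20.

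Dusp2, a nuclear phosphatase of blood cells, and Dusp5, a nuclear phosphatase that is specific for ERK, were low in BM and abundant in TANs. Dusp2 (ENSMUSG00000027368, chr2:127336159-127338376, plus strand) was at 5.43, 12.6, 12.1 and 8.69 CPM in BM, at 142, 156, 201 and 139.5 CPM in PyMT TANs, against 103, 66.6, 136 and 149 CPM in PyMT-Cxcr2-/- TANs. TANs were far above BM in every library, and the TAN groups overlapped, although PyMT-Cxcr2-/- replicates 1, 2 and 3 were below all PyMT TANs. With library totals in place of TMM the TAN groups did not overlap for Dusp2. It was then at 155.9 to 235.5 CPM in PyMT TANs and 73.1 to 141 CPM in PyMT-Cxcr2-/- TANs. Under other normalizations, filters and models the log2 fold change between them ran from -0.705 to -0.434. Dusp2 had a log2 fold change of 4.10 (SE 0.27) in PyMT TANs and 3.68 (SE 0.31) in PyMT-Cxcr2-/- TANs against BM, and -0.49 (SE 0.23) between the TAN groups. Dusp5 (ENSMUSG00000034765, chr19:53529109-53542431, plus strand) was at 22.2, 25.2, 33.1 and 22.8 CPM in BM, at 301, 369, 392 and 318 CPM in PyMT TANs, against 372, 361, 463 and 428 CPM in PyMT-Cxcr2-/- TANs. Its gene shares bases with AC137853.2 on the opposite strand. The TAN groups overlapped, with means of 345 ± 42.6 CPM for PyMT and 406 ± 47.8 CPM for PyMT-Cxcr2-/- mice (SD, n = 4). For Dusp5 the log2 fold change was 3.81 (SE 0.17) and 4.11 (SE 0.15) against BM in the same order, and 0.23 (SE 0.14) between the TAN groups.

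Dusp4, the inducible nuclear phosphatase of ERK and JNK, was much rarer. Dusp4 (ENSMUSG00000031530, chr8:34807297-34819894, plus strand) was at 0.6, 0.712, 1.004 and 0.533 CPM in BM, where it rested on 19 to 35 counts per library. It was at 2.89, 7.19, 9.52 and 7.42 CPM in PyMT TANs, against 7.56, 7.08, 5.37 and 5.61 CPM in PyMT-Cxcr2-/- TANs. The TANs did not overlap with BM, and the TAN groups overlapped, with the lowest and the highest TAN library both from PyMT mice. The log2 fold change against BM was 3.31 (SE 0.43) in PyMT TANs and 3.30 (SE 0.27) in PyMT-Cxcr2-/- TANs.

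Dusp6, the cytoplasmic phosphatase that is itself a standard transcript of ERK activity, was the only one of the 8 with lower levels in TANs. Dusp6 (ENSMUSG00000019960, chr10:99263231-99267489, plus strand) was at 432.5, 316, 389 and 419.7 CPM in BM, at 244, 191, 219.5 and 174 CPM in PyMT TANs, against 187, 175, 213 and 205 CPM in PyMT-Cxcr2-/- TANs. All TANs were below all BM libraries, and the TAN groups overlapped. Against BM the log2 fold change was -0.84 (SE 0.14) in PyMT TANs and -0.86 (SE 0.12) in PyMT-Cxcr2-/- TANs. With library totals it was -0.41 in PyMT TANs, under the fold threshold, and -0.68 in PyMT-Cxcr2-/- TANs, where this scaling moved the median of all genes to 0.53 and 0.27.

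Dusp16 and Dusp10, the phosphatases directed at JNK and p38, differed widely in level. Dusp16 (ENSMUSG00000030203, chr6:134715468-134792625, minus strand) was at 23.7, 22.7, 25.5 and 22.7 CPM in BM, at 720.2, 552, 472 and 847 CPM in PyMT TANs, against 635, 653, 663 and 801 CPM in PyMT-Cxcr2-/- TANs. BM libraries were nearly equal, TANs were far above them, and PyMT TANs spread on both sides of all PyMT-Cxcr2-/- TANs. Dusp16 had a log2 fold change of 4.84 (SE 0.20) in PyMT TANs and 4.998 (SE 0.12) in PyMT-Cxcr2-/- TANs against BM. Dusp10 (ENSMUSG00000039384, chr1:184013302-184075636, plus strand) was at 1.38, 2.51, 2.29 and 2.19 CPM in BM, at 4.26, 3.05, 2.29 and 4.88 CPM in PyMT TANs, against 4.71, 4.08, 5.06 and 6.23 CPM in PyMT-Cxcr2-/- TANs. PyMT TAN replicate 3 lay within the BM range, whereas all PyMT-Cxcr2-/- TANs were above it. Dusp10 had one of 0.86 (SE 0.37) in PyMT TANs, 1.40 (SE 0.24) in PyMT-Cxcr2-/- TANs, and 0.47 (SE 0.31) between the TAN groups.

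Dusp3, the small atypical phosphatase of ERK and JNK, had the largest fold change of the 8 against BM, from the lowest BM level. Dusp3 (ENSMUSG00000003518, chr11:101971143-101987013, minus strand) was at 0.51, 0.372, 0.574 and 0.28 CPM in BM, on 10 to 20 counts per library. It was at 9.36, 23.2, 34.8 and 27.5 CPM in PyMT TANs, against 31.4, 35.5, 20.8 and 14.9 CPM in PyMT-Cxcr2-/- TANs. The TAN mice spread widely and the genotypes overlapped. The log2 fold change against BM was 5.83 (SE 0.45) in PyMT TANs and 6.02 (SE 0.34) in PyMT-Cxcr2-/- TANs. The gene Gm20659 shares bases with Dusp3 on the opposite strand.

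**Figure D2:**
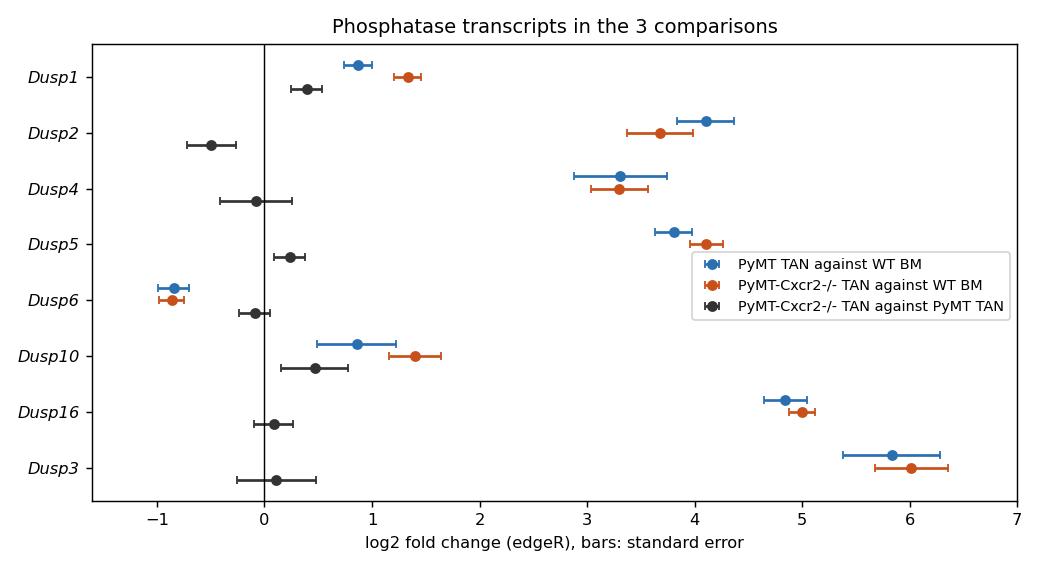
Log2 fold change (horizontal axis, bars are the standard error of the edgeR fit) of each phosphatase transcript in PyMT TANs against WT BM (blue), PyMT-Cxcr2-/- TANs against WT BM (orange) and PyMT-Cxcr2-/- against PyMT TANs (black). Against BM the values run from -0.86 for Dusp6 to 6.02 for Dusp3, and between the TAN groups they stay between -0.49 and 0.47.

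Per length (CPM per kb of exon), the order of the 8 differed between tissues below Dusp1. In BM, Dusp1 (507 CPM per kb) was followed by Dusp6 (124), Dusp5 (10.4), Dusp2 (4.85), Dusp16 (3.03), Dusp10 (0.688), Dusp4 (0.26) and Dusp3 (0.0927), and of these neighbors Dusp2 and Dusp16 alone overlapped between libraries. In PyMT TANs, Dusp1 (885 CPM per kb) was followed by Dusp5 (139.5), Dusp16 (83.0), Dusp2 (79.6), Dusp6 (66.2), Dusp3 (5.06), Dusp4 (2.46) and Dusp10 (1.19), where the libraries overlapped from Dusp16 to Dusp6 and from Dusp3 to Dusp10. In PyMT-Cxcr2-/- TANs, Dusp1 (1164 CPM per kb) was followed by Dusp5 (164), Dusp16 (88.2), Dusp6 (62.3), Dusp2 (56.7), Dusp3 (5.48), Dusp4 (2.34) and Dusp10 (1.65), and only Dusp6 with Dusp2 and Dusp4 with Dusp10 overlapped. By group mean, Dusp6 thus stood next to Dusp1 in BM and behind Dusp5 and Dusp16 in both TAN groups. Summed over the 8, the level was 651 ± 36.1 CPM per kb in BM, 1263 ± 120 in PyMT TANs and 1545 ± 142 in PyMT-Cxcr2-/- TANs (SD, n = 4). Dusp1 made up 77.8% ± 2.95 of this sum in BM, 70.0% ± 2.78 in PyMT TANs and 75.4% ± 0.994 in PyMT-Cxcr2-/- TANs, and Dusp6 made up 19.2% ± 2.86, 5.23% ± 0.36 and 4.03% ± 0.0449 in the same order. Among 11089 genes, Dusp1 ranked 75 in BM, 25 in PyMT TANs and 20 in PyMT-Cxcr2-/- TANs, while Dusp16 ranked 6785, 422 and 461.

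**Figure D3:**
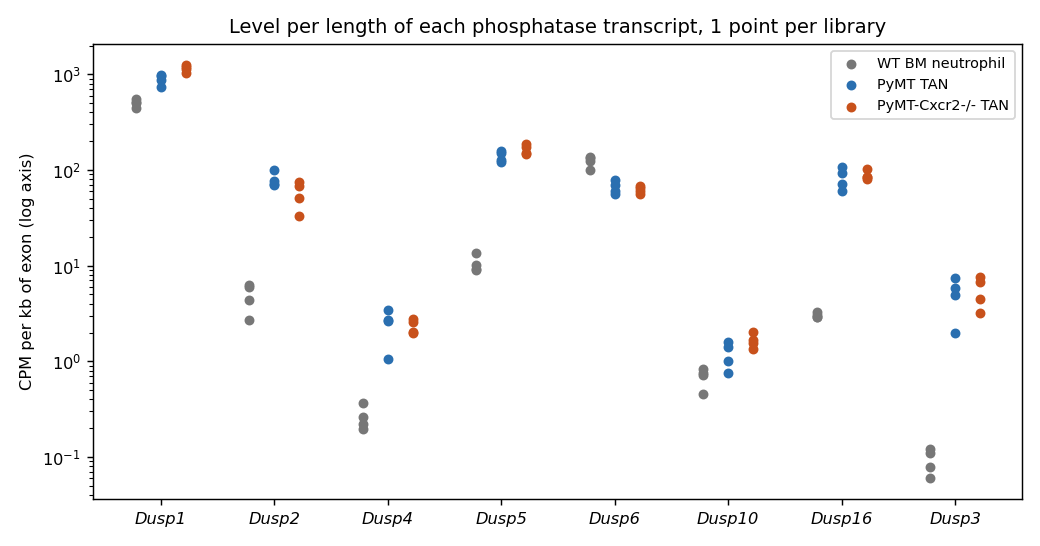
CPM per kb of exon (vertical axis, log scale) of the 8 phosphatase transcripts, with 1 point per library, WT BM in grey, PyMT TANs in blue and PyMT-Cxcr2-/- TANs in orange. Dusp1 is highest in every group, and Dusp6 is the only transcript with BM points above all TAN points.

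Mice of the TAN groups differed among themselves, and this spread moved with other transcripts. Over the 8 TAN libraries, each of the 8 phosphatases was set against the summed CPM of the macrophage and monocyte markers and of 16 immediate early genes. These were 16 relations in all, on a log2 scale, chosen after the values had been seen. The adjustment of p over these 16 does not cover that choice. Dusp3 rose with the macrophage and monocyte sum (Pearson r = 0.9, adjusted p = 0.0116, Spearman rho = 0.905, adjusted p = 0.0365, exact permutation over 8 libraries, Benjamini-Hochberg over the 16). Without the 2 libraries farthest from the median of that sum, r was 0.706, and centred within each genotype it was 0.942 (adjusted p = 0.0694, exact permutation within genotypes). The lowest Dusp3 levels, in PyMT TAN replicate 1 and PyMT-Cxcr2-/- TAN replicate 4, were in the libraries with the lowest marker sums, 2182 and 2376 CPM. Dusp4 gave r = 0.853 with the same sum (adjusted p = 0.0116, exact permutation), rho = 0.762 (adjusted p = 0.118, exact permutation), r = 0.814 without the 2 farthest libraries and r = 0.869 within genotypes (adjusted p = 0.0764, exact permutation). Dusp16 and Dusp10 instead fell with that sum. For Dusp16, r was -0.672 and rho -0.762 (adjusted p = 0.187 and 0.118, exact permutation). For Dusp10, r was -0.691 and rho -0.738 (adjusted p = 0.174 and 0.122, exact permutation), with r = -0.764 within genotypes (adjusted p = 0.125, exact permutation). The highest Dusp3 levels were in PyMT TAN replicates 3 and 4 and PyMT-Cxcr2-/- TAN replicates 1 and 2. These libraries also had the highest mammary epithelial sums (329.5, 439, 239.8 and 305 CPM, against 47.02 to 117 CPM in the others). For Dusp4 the order differed, with PyMT TAN replicate 2 (7.19 CPM) above PyMT-Cxcr2-/- TAN replicate 2 (7.08 CPM). The sort selected F4/80- cells. Adgre1, the gene of F4/80, averaged 138 CPM for PyMT TANs, 110 CPM where Cxcr2 was absent and 10.3 CPM for BM. What part macrophage or epithelial RNA has in the Dusp3 and Dusp4 levels was not tested.

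The immediate early genes, which are switched on within minutes of many stimuli, tissue dissociation included, summed to 4671 to 5671 CPM in BM, 11740 to 16220 CPM with PyMT TANs and 14820 to 18580 CPM when Cxcr2 was absent. Of the 15 tested against BM, PyMT TANs had 12 higher and 1 lower, beside 30.1% and 23.2% of all genes tested. PyMT-Cxcr2-/- TANs had 14 higher and 0 lower, beside 34.4% and 25.1%. Between the TAN groups 0 were past the thresholds by edgeR and 0 by DESeq2 (5 had an unadjusted p under 0.05 by edgeR). Dusp1 rose with this sum over the 8 TAN libraries (r = 0.915, adjusted p = 0.0116, rho = 0.81, adjusted p = 0.116, exact permutation), with r = 0.714 without the 2 farthest libraries and 0.89 within genotypes (adjusted p = 0.0764, exact permutation). Dusp5 did so too (r = 0.851, adjusted p = 0.0262, rho = 0.952, adjusted p = 0.0183, exact permutation), with r = 0.837 without the 2 farthest libraries and 0.756 within genotypes (adjusted p = 0.125, exact permutation). PyMT-Cxcr2-/- TAN replicates 3 and 4 had the highest sums and the highest Dusp1 and Dusp5 levels, and PyMT TAN replicate 4 had the lowest sum and the lowest Dusp1 level. Centring within genotypes removes differences between genotypes, and there the adjusted p of all 16 relations was above 0.05. There, Dusp2 and Dusp6 had r = 0.781 (adjusted p = 0.0694, exact permutation) and r = 0.735 (adjusted p = 0.167, exact permutation) with the same sum. For the other 12 relations the adjusted p of Pearson's r and of Spearman's rho was above 0.05. What part the induction of immediate early genes during digestion has in the Dusp1 and Dusp5 levels was not tested.

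**Figure D4:**
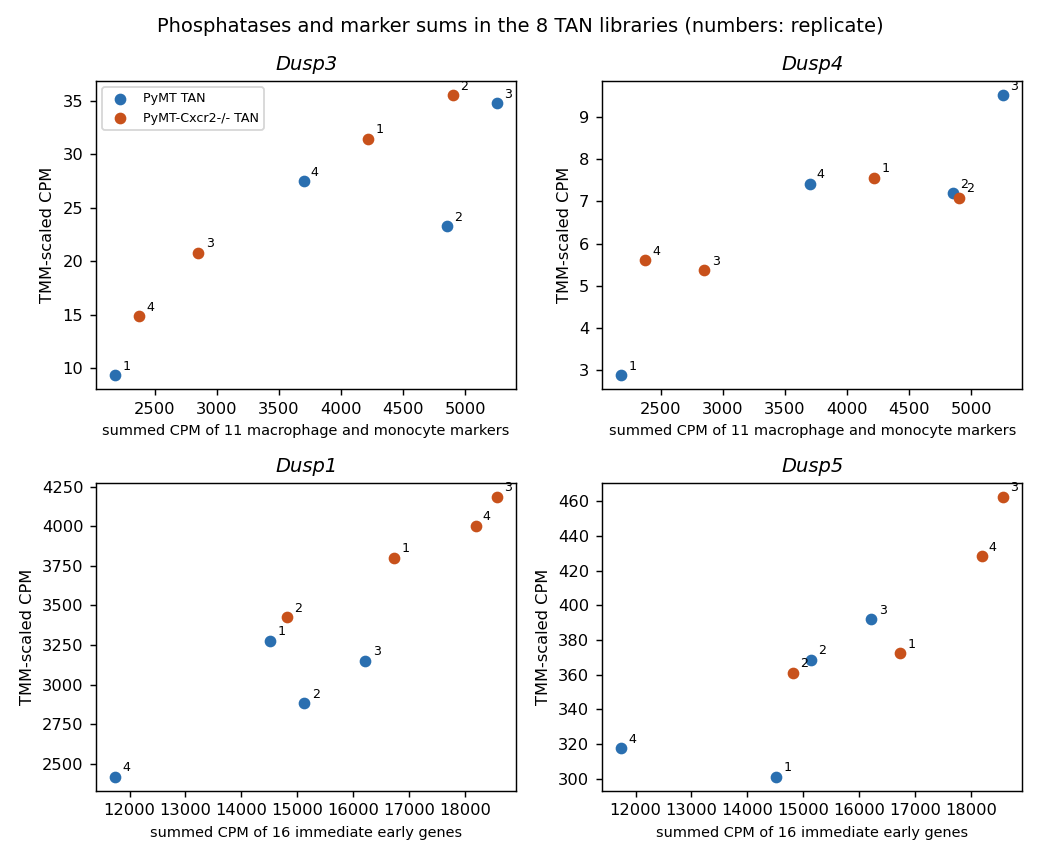
TMM-scaled CPM of Dusp3 and Dusp4 against the summed CPM of 11 macrophage and monocyte markers (top), and of Dusp1 and Dusp5 against the summed CPM of 16 immediate early genes (bottom), in the 4 PyMT TAN (blue) and 4 PyMT-Cxcr2-/- TAN libraries (orange), numbered by replicate. The levels rise together in each panel, with r from 0.851 to 0.915 on a log2 scale.

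Genes with the most similar profile were sought by the root mean square difference of centred log2 CPM over the 12 libraries, among 11093 genes. Nearest to Dusp1 were Ifngr1, a chain of the interferon gamma receptor (0.11), and 5430427O19Rik (0.12). Dusp5 was closest to Nr4a1 (0.16) and Fosb (0.20), both of them immediate early transcription factor genes. Both are part of the immediate early sum above, so that this closeness and the relation of Dusp5 with that sum are not independent. Dusp2 was closest to Ccrl2, an atypical chemokine receptor (0.26), and Slc38a1 (0.28). Dusp16 was closest to Npl (0.27) and Tnfaip3 (0.30), an inhibitor of NF-kappaB signaling. Dusp6 was closest to Aurkaip1 (0.10) and Ubl5 (0.11), Dusp10 to Zbtb11 and Gm43203 (0.17 each), Dusp3 to Scpep1 (0.23) and Frmd4b (0.24), and Dusp4 to Pccb (0.23) and Ccdc50 (0.26). Among the phosphatases themselves, Dusp1 and Dusp10 (0.37) and Dusp2 and Dusp5 (0.43) were the nearest pairs, and Dusp3 and Dusp6 (3.16) the farthest.

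The rest of the pathway was described with 111 listed genes other than the 8. Between the TAN groups, 100 were tested, and PyMT-Cxcr2-/- TANs had 5 of them higher and 0 lower, beside 1.38% and 0.596% of all genes tested. By edgeR, 20 higher and 7 lower ones had an unadjusted p under 0.05. DESeq2 called 9 higher and 1 lower. Of the 8 neutrophil markers, 5 were also higher in PyMT-Cxcr2-/- TANs than in PyMT TANs. The 1 that was lower is Cxcr2, the deleted gene. The median log2 fold change of the 8 markers was 1.11, and their part in the differences of the pathway genes was not tested. Mapk3, which encodes the ERK1 kinase, rose from 93.0 ± 15.4 to 167 ± 23.1 CPM (SD, n = 4), and the log2 fold change was 0.84 (SE 0.16, edgeR adjusted p = 0.0251). Mapk13, the p38 delta kinase, rose from 63.6 ± 16.4 to 140.3 ± 36.0 CPM (log2 fold change 1.14, SE 0.22, edgeR adjusted p = 0.0251). Rps6ka2, a kinase activated by ERK, rose by 1.19 (SE 0.23, edgeR adjusted p = 0.0253), Map3k15 by 0.72 (SE 0.16, edgeR adjusted p = 0.0482), and Fosl1, a transcription factor gene induced by ERK, by 1.63 (SE 0.32, edgeR adjusted p = 0.0268). In BM these were at 416 ± 78.4 CPM (Mapk3), 366 ± 48.7 CPM (Mapk13), 160 ± 27.3 CPM (Rps6ka2) and 170 ± 13.2 CPM (Map3k15), above both TAN groups, while Fosl1 was at 9.26 ± 2.71 CPM (SD, n = 4), between 5.38 CPM (PyMT TANs) and 16.6 CPM (PyMT-Cxcr2-/- TANs). Map3k15 shares bases with Pdha1 and Fosl1 with Ccdc85b on the opposite strand, so that these counts are uncertain in the same way as that of Dusp1. None of the 5 remained past the thresholds without PyMT TAN replicate 2, PyMT-Cxcr2-/- TAN replicate 3 or PyMT-Cxcr2-/- TAN replicate 4, each left out alone, while the log2 fold changes were close to those above, at 0.96 to 1.19 (Mapk13), 0.77 to 0.87 (Mapk3), 1.06 to 1.17 (Rps6ka2), 0.65 to 0.76 (Map3k15) and 1.40 to 1.66 (Fosl1). Fewer calls were lost without PyMT TAN replicate 3 (Mapk13 and Map3k15), PyMT TAN replicate 4 (all but Mapk3), PyMT-Cxcr2-/- TAN replicate 1 (Map3k15) or PyMT-Cxcr2-/- TAN replicate 2 (Fosl1, edgeR adjusted p = 0.0507). Map3k15 was also not past the thresholds with library totals (0.52, edgeR adjusted p = 0.0541), DESeq2 size factors (0.78, edgeR adjusted p = 0.0521), upper quartile factors (0.74, edgeR adjusted p = 0.0581) or without robust estimation (0.72, edgeR adjusted p = 0.0531), and neither Map3k15 nor Rps6ka2 was with the GC and length adjustment (edgeR adjusted p = 0.0626 and 0.0669).

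Against BM, 29 of 91 pathway genes tested were higher (31.9%) and 25 lower (27.5%) in PyMT TANs, and PyMT-Cxcr2-/- TANs had 37 of 94 higher (39.4%) and 18 lower (19.1%), beside 30.1% and 23.2%, and 34.4% and 25.1%, of all genes tested. The split depended on the scaling, with 36 higher and 14 lower in PyMT TANs under library totals, and 26 and 36 in PyMT TANs and 35 and 34 in PyMT-Cxcr2-/- TANs after an adjustment for GC content and gene length. Of the 10 transcripts used as readouts of ERK activity, a list without Dusp6, PyMT TANs had 8 higher, PyMT-Cxcr2-/- TANs 9, and 0 were lower by edgeR. At an unadjusted p under 0.05, 1 was lower in PyMT TANs and 0 in PyMT-Cxcr2-/- TANs, and DESeq2 called the same numbers. The readout Etv1 was at 1.05, 0.668, 10.54 and 18.3 CPM in PyMT TANs, against 6.2, 7.47, 3.78 and 2.32 CPM in PyMT-Cxcr2-/- TANs, and Epha2 at 1.2, 3.64, 10.1 and 11.3 CPM and at 7.47, 8.81, 3.16 and 4.3 CPM. The mammary epithelial markers summed to 47.02, 61.2, 329.5 and 439 CPM and to 239.8, 305, 83.6 and 117 CPM in the same libraries, with both readouts higher in PyMT TAN replicates 3 and 4 and PyMT-Cxcr2-/- TAN replicates 1 and 2, where this sum was high. Its part in the level of the readouts was not tested. Myc rose by 3.46 (SE 0.45, edgeR adjusted p = 5.34e-05) in PyMT TANs and by 3.60 (SE 0.27, edgeR adjusted p = 1.09e-07) in PyMT-Cxcr2-/- TANs. Among inhibitors of ERK signaling, 4 of 5 and 5 of 6 tested genes were higher and 1 was lower in each. Spred1, which holds back Raf activation, rose from 2.68 ± 0.562 CPM in BM to 43.8 ± 13.3 CPM (PyMT TANs) and 39.9 ± 10.1 CPM (PyMT-Cxcr2-/- TANs; SD, n = 4). Spred1 was at 46.2 to 56.25 CPM in the TAN libraries where the mammary epithelial sum was high and at 28.3 to 37.4 CPM in the others. The part of that sum in its level was not tested. Errfi1, an inhibitor of the EGF receptor, rose by 2.39 (SE 0.24, edgeR adjusted p = 9.7e-06) and 2.22 (SE 0.17, edgeR adjusted p = 1.75e-07), while Spred2 fell by 0.98 (SE 0.19, edgeR adjusted p = 0.000974) and 0.91 (SE 0.15, edgeR adjusted p = 0.000102). With library totals the fall of Spred2 in PyMT TANs was -0.53, under the fold threshold.

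The kinases themselves moved in both directions. Of the MAP kinases tested, 3 of 11 were higher and 5 lower in PyMT TANs, and in PyMT-Cxcr2-/- TANs 4 of 12 were higher and 5 lower. The shares of all genes tested were 30.1% higher and 23.2% lower, and 34.4% and 25.1%, in the same order. Mapk8, the JNK1 gene, rose by 1.52 (SE 0.16, edgeR adjusted p = 1.06e-05) and 1.22 (SE 0.12, edgeR adjusted p = 1.29e-06), and Mapk6 by 2.02 and 2.23. Mapk14, the p38 alpha gene, fell by 1.49 (SE 0.17, edgeR adjusted p = 2.08e-05) and 0.79 (SE 0.13, edgeR adjusted p = 0.00015), and Mapk3 by 2.10 and 1.19. Upstream, Map3k8, a kinase of the ERK pathway in myeloid cells, rose from 32.8 ± 0.871 CPM in BM to 158 ± 42.2 and 108 ± 25.0 CPM (SD, n = 4). Of the 10 kinases activated by MAP kinases, 6 were lower in PyMT TANs and 4 in PyMT-Cxcr2-/- TANs, with 1 higher in each, Mapkapk2, the kinase below p38 (1.08 and 1.47). Zfp36l1, an RNA-binding protein that shortens the life of AU-rich mRNAs, rose by 3.71 and 3.74, and its gene shares bases with Gm26669 on the opposite strand.

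Among the other dual-specificity phosphatases, 5 of 11 tested were higher and 0 lower in PyMT TANs, and 7 of 13 higher and 1 lower when TANs lacked Cxcr2, against BM. Over all genes tested the shares were 30.1% higher and 23.2% lower in PyMT TANs, and 34.4% and 25.1% in PyMT-Cxcr2-/- TANs. In PyMT TANs 2 were lower at an unadjusted p under 0.05 by edgeR, and DESeq2 called 1 lower. Between the TAN groups, 0 of 14 were past the thresholds by edgeR and 0 by DESeq2, and 2 had an unadjusted p under 0.05 by edgeR. Dusp8, a JNK and p38 phosphatase, was higher by 4.35 (SE 0.66) and 4.27 (SE 0.40) than in BM, where it was at 0.278 ± 0.128 CPM (SD, n = 4). It rested there on 4 to 14 counts per library and passed the filter through its TAN counts, so that no p-value is given. Its gene shares bases with Gm32786 on the opposite strand. Dusp8 was at 1.33, 4.09, 9.48 and 6.94 CPM in PyMT TANs and at 6.825, 5.6, 2.77 and 4.63 CPM in PyMT-Cxcr2-/- TANs (replicates 1 to 4). It was highest in the libraries where the mammary epithelial sum was high, and the part of that sum in its level was not tested. Dusp18 rose by 3.17 and 2.56. Dusp7, a cytoplasmic ERK phosphatase like Dusp6, was at 24.4 ± 4.52, 19.7 ± 3.38 and 20.96 ± 4.67 CPM in PyMT TANs, PyMT-Cxcr2-/- TANs and BM (SD, n = 4) and was not past the thresholds in any comparison. Dusp9 was near the floor in BM at 0.0657 ± 0.0947 CPM (0 to 7 counts per library), and averaged 0.141 ± 0.164 CPM (PyMT) and 0.716 ± 0.284 CPM (PyMT-Cxcr2-/-) in the TAN groups (SD, n = 4). Dusp9 is among the 7 called higher in PyMT-Cxcr2-/- TANs against BM (fitted log2 fold change 3.51, SE 0.79). It passed the filter there only through these TANs, on 16 to 49 counts per library, so that a lower call was not possible. Nothing is read from the call, and no p-value is given. In PyMT TANs against BM it did not pass the filter and was not tested.

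**Figure D5:**
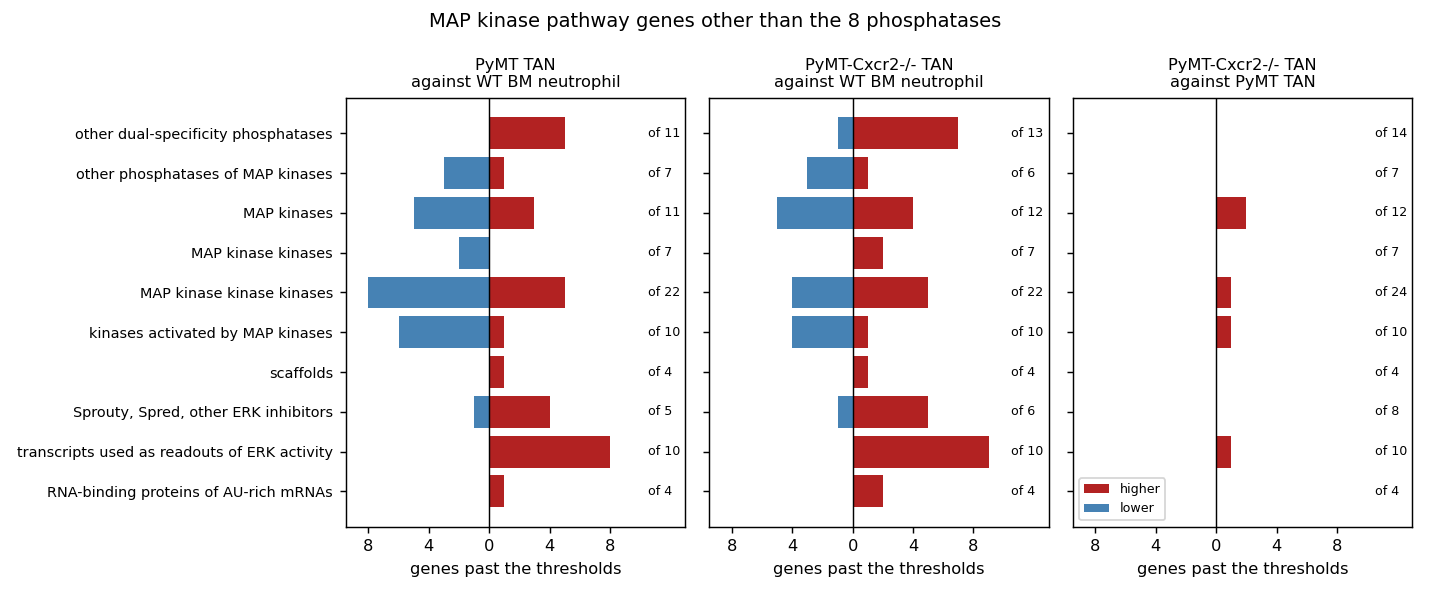
Number of genes past the thresholds (horizontal axis, higher to the right in red, lower to the left in blue) in each list of MAP kinase pathway genes other than the 8 phosphatases, with the number tested at the right, in the 3 comparisons. Readouts of ERK activity are called by edgeR in 1 direction only against BM, 8 and 9 of 10 (a list without Dusp6, which was lower in both TAN groups), and between the TAN groups 5 genes are called in all.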

How the data were processed

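RNA-seq libraries of sorted neutrophils from 3 groups of 4 mice were used, 12 in total. Ribosomal RNA was depleted by the authors, who aligned trimmed reads (STAR, mm10) and obtained a count for each gene with HTSeq. The deposited files hold those counts without normalization. The annotation release and the strand setting of the counting are not given in the sources used here. Of 55335 genes, 55154 were matched to GENCODE M21 symbols and coordinates.

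Each comparison was fitted on its 2 groups with edgeR 4.0.16 (R 4.3.3), with TMM, filterByExpr, robust estimation of the spread, the quasi-likelihood test and Benjamini-Hochberg adjustment over all genes. The thresholds were an adjusted p under 0.05 and a fold of 1.5. The labels give separate samples and the methods separate animals, and p-values measure the spread between these mice. CPM used TMM factors over the 12 libraries from genes past the filter. This was chosen after CPM with factors from all genes had been seen, which differed by at most 2.56% for the 8 phosphatases in any library. Lengths were unions of exons. Profiles used log2 CPM with a prior count of 2.

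The 8 genes, the gene lists and the tests were chosen with earlier results of these data known. Besides the 8, the genes named are up to 3 higher and 3 lower per list and comparison with the largest fold change and an average log2 CPM of at least 1, the kinases Mapk3, Mapk8 and Mapk14, Dusp7, Dusp8 and Dusp9, and the 2 nearest profiles of each. A gene that the rule also names is not reported here. Alternatives were other normalization factors and filters, 12 libraries in one fit, the replicate block, an adjustment for GC content and gene length, DESeq2 1.42.0, other thresholds and each mouse left out. Procedures were tested on simulated data.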

Additional observations from a re-analysis of the deposited data

Results flagged for a closer look

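In a group of 4 libraries, a value was noted when its gap to the nearest other exceeded the range expected of 4 values. This was so for 12 of 153 gene and group combinations, over 51 genes, and chance gives about 1 in 20. Among the 8 phosphatases it was Dusp16 in PyMT-Cxcr2-/- TAN replicate 4, at 801 CPM against 635 to 663 in the others. With TMM factors from all genes that value was 812 CPM. In the same library Mapk13 was at 194 CPM (others 118 to 129) and Mapk7 at 37 CPM (others 19.3 to 19.7). In other PyMT-Cxcr2-/- TANs, Spry2 was at 12.3 CPM in replicate 2 (others 16.4 to 16.6) and Mapk8ip1 at 1.36 CPM in replicate 3 (others 2.77 to 3.02).

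In PyMT TANs, Mapk3 was at 70 CPM (others 99 to 102) and Zfp36 at 798 CPM (others 1210 to 1280) in replicate 4, Mapk4 at 1.33 CPM in replicate 3 (others 0.25 to 0.374) and Mapk8ip1 at 2.83 CPM in replicate 2 (others 3.55 to 3.69). In WT BM neutrophils, 3 kinases stood apart in replicate 1, Rps6ka1 at 438 CPM (others 319 to 320), Mapkapk3 at 165 CPM (others 133 to 137) and Map2k2 at 120 CPM (others 88.6 to 91.3).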

How the results depend on the processing

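The directions of the 8 phosphatases against BM held in all 152 values under the alternatives in each of both comparisons, and between the TAN groups in 140 of 152. Between the TAN groups, the count of higher pathway genes (5) was 0 with the replicate block, 0 with the block and the GC and length adjustment together, 3 with that adjustment alone, 9 with DESeq2, 1 at a log2 fold change of 1.5, and 0 to 6 with each mouse left out, and was 3 without PyMT TAN replicate 3 and 2 without replicate 4. The count of lower genes (0) was 2 with library totals, 1 with 12 libraries in one fit and 1 with DESeq2. In PyMT TANs against BM, lower genes (25) numbered 14 with library totals and 11 at a log2 fold change of 1.5. In PyMT-Cxcr2-/- TANs against BM, lower genes (18) numbered 34 with the GC and length adjustment, 34 with it and the replicate block, 33 without a fold limit and 3 at a log2 fold change of 1.5. Over all genes, calls between the TAN groups (255 higher, 110 lower) were 4 and 9 with the replicate block, 5 and 8 with it and the GC and length adjustment, 693 and 294 with DESeq2, 579 and 307 with 12 libraries in one fit and 54 and 22 at a log2 fold change of 1.5. They were 471 higher without the filter, 391 lower with library totals, 68 lower with the GC and length adjustment, and 10 to 427 higher and 13 to 100 lower with each mouse left out. Against BM, lower calls in PyMT TANs (3988) were 2488 with library totals and 1872 at a log2 fold change of 1.5, and in PyMT-Cxcr2-/- TANs (4444) 1657 at that limit. The cause of these changes was not tested.

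Some differences past no threshold changed sign. Dusp8 between the TAN groups was 0.065 with the replicate block, 0.011 with the block and the GC and length adjustment, and -0.417 to 0.27 with each mouse left out, above 0 without PyMT TAN replicates 3 or 4 or PyMT-Cxcr2-/- TAN replicate 3. Dusp7 in PyMT-Cxcr2-/- TANs against BM was -0.088 with 12 libraries in one fit, -0.251 with the GC and length adjustment, -0.245 with it and the replicate block, and -0.05 to 0.191 with each mouse left out, below 0 without PyMT-Cxcr2-/- TAN replicate 1 or WT BM replicates 3 or 4. The r of Dusp5 with the macrophage and monocyte sum was -0.0483 with TMM factors from all genes.

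The replicate numbers do not pair the mice, which are different animals. Libraries that share a number deviated with a mean correlation of -0.0408 (range -0.321 to 0.157) over 12 pairs. With the block none of the 5 genes was past the thresholds (adjusted p 0.152 to 0.254, and 0.123 to 0.27 with the GC and length adjustment added), while their log2 fold changes were 1.14 (Mapk13), 0.84 (Mapk3), 0.71 (Map3k15), 1.20 (Rps6ka2) and 1.61 (Fosl1). Depth limits Dusp3, Dusp4, Dusp10, Dusp8 and Dusp9 in BM, which rest on few counts.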
